A study of Mus musculus with 3 samples.

Results

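The cells described here are Neurog2-, Eomes- and Gadd45g-positive cells of the mouse embryonic dorsal midline that held little neuronal RNA, labelled intermediate progenitors. They were chosen by measured values: at least 5 UMIs of Neurog2, Eomes and Gadd45g together, under 8 UMIs of Tubb3 and Stmn2 per 10000 UMIs of the cell, and under 20 UMIs of Ttr per 10000. A UMI is a molecular tag that marks 1 captured transcript. The rule found 5243 of the 33001 cells that passed the filters, with 2524 in the Gmnc-/- library, 1412 in wild-type library 1 and 1307 in wild-type library 2. Each library was set against its own cells within the same limits on Tubb3, Stmn2 and Ttr but with no UMI of the 3 rule genes (3913 Gmnc-/- cells, and 2398 and 1895 wild-type cells), called comparison cells below.

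Droplet libraries of transcript 3′ ends were made from dissected midline tissue, which includes the cortical hem, of C57BL/6J embryos. The Gmnc-/- library came from 4 pooled E12.5 embryos. Both wild-type libraries came from 1 suspension that pooled 4 PGKCre;Rosa26YFP embryos at E11.5 with 4 Wnt3aCre;Rosa26tdTomato embryos at E12.5. The PGK promoter drives Cre throughout the embryo and Wnt3a is a gene of the hem. There was thus 1 suspension per genotype: no test of genotype was possible, the intervals below are 95% exact Poisson or binomial intervals that cover counting error only, and genotype, stage, dissection and library preparation cannot be told apart.

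The cortical hem is a signalling centre at the edge of the cortex that secretes Wnt and Bmp proteins and gives rise to Cajal-Retzius neurons. On their way to neurons, radial glia switch on proneural basic helix-loop-helix factors such as Neurog2; these raise Notch ligands such as Dll1, which signal to the neighbouring cells, and growth-arrest genes such as Gadd45g. Eomes, a T-box factor, marks intermediate progenitors that leave the ventricular surface, and Gmnc is a coiled-coil regulator at the head of the gene network that builds multiple motile cilia.

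The start regions of 6 genes that set the rule or were higher in the chosen cells are shown because basic helix-loop-helix proneural factors bind short E-box elements; 5 of them were picked because they hold such an element. Each run holds 250 bases before and 50 bases after a gene start in RefSeq, build GRCm38.p6, 5′ to 3′ on the strand of the gene, and capitals mark CAGATG (or CATCTG, its form on the other strand) and CAGCTG.
Neurog2, chr3:127632886-127633185, plus strand: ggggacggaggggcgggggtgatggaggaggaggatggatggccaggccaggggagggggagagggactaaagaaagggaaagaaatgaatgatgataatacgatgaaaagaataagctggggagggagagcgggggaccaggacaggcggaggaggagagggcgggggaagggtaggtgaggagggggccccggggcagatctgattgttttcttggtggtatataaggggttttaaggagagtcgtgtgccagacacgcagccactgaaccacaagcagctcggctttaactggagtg
Gadd45g, chr13:51846425-51846724, plus strand: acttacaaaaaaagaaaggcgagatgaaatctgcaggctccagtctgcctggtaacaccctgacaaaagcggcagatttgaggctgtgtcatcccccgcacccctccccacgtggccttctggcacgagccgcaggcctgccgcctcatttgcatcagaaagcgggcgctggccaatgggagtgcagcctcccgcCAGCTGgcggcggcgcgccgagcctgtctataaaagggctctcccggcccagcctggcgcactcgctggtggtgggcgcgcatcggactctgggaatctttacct
Dll1, chr17:15376883-15377182, minus strand: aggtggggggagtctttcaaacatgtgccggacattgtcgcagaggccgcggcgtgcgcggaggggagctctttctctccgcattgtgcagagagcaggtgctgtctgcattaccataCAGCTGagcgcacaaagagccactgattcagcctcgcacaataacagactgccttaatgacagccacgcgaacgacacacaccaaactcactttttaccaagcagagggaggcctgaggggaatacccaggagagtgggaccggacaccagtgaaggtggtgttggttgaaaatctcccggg
Srrm4, chr5:116591768-116592067, minus strand: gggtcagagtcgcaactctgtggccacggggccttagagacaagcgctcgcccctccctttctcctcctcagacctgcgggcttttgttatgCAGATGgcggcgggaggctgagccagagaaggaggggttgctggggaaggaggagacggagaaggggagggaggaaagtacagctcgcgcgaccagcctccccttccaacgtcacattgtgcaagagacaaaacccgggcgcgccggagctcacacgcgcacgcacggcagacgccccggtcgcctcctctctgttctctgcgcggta
Hes6, chr1:91413989-91414288, minus strand: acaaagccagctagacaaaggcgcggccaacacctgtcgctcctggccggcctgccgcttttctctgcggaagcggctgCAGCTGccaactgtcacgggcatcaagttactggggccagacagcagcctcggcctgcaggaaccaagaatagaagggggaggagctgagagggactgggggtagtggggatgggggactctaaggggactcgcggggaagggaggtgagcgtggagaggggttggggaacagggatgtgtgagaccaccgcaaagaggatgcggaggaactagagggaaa
Elavl3, chr9:22051974-22052273, minus strand: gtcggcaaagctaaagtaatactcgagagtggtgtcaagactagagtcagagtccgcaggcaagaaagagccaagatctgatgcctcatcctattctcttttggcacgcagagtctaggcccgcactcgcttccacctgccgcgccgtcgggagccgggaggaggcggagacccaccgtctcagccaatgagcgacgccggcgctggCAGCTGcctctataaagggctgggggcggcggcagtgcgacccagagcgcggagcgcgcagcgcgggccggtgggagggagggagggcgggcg
Of the 3 rule genes and the 13 genes named below as higher in the chosen cells, 13 had a promoter in the table, 18 promoters in all. Of these 18 promoters 9 held at least 1 of these motifs, with the overlapping promoters of Elavl4 counted separately, and of the 13 genes 6 (46.2%) had a promoter with a motif. Of all 32851 promoters of the same length 30.6% held a motif, with CAGATG on either strand in 17.2% and CAGCTG in 16.3%. These shares count single promoters. A gene with several promoters has several chances to hold a motif, and no share per gene was computed for all genes. The 46.2% therefore cannot be set against the 30.6%, and no excess of motifs is read from these counts. The Neurog2 run held none, those of Gadd45g, Dll1, Hes6 and Elavl3 held CAGCTG, and that of Srrm4 held CAGATG. Dll1 had another promoter in the table, chr17:15375774-15376073, which held none. A match of letters is a description of the sequence and not a binding site.

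Depth and sharing of cells bear on every value. The libraries held 259403297 UMIs (Gmnc-/-), 148073906 UMIs (wild type 1) and 139978761 UMIs (wild type 2). The median chosen cell had 25219.5 UMIs in the Gmnc-/- library and 18696 and 20025 UMIs in the wild-type libraries, against 8204 UMIs and 11860.5 and 12582 UMIs in comparison cells. Cells that resembled simulated doublets made up 32.8% of chosen Gmnc-/- cells and 26.6% and 19.97% of chosen wild-type cells, against 4.70% (Gmnc-/-) and 3.00% and 2.01% (wild type) of comparison cells. The wild-type libraries shared 1914 barcodes, of which 52 passed the filters in both, and the Gmnc-/- library shared 78 and 42 barcodes with them. The 52 had a median of 2809 UMIs in library 1 and 85573.5 UMIs in library 2; 4 and 28 of these were chosen cells. Leaving them out gave 44 in place of 45 genes lower in the Gmnc-/- library and moved none of the other counts of genes below. Erythroid cells, with over 20% haemoglobin UMIs, served as a measure of RNA from other cells in a droplet: a Sox2 UMI was found in 34.8% of Gmnc-/- erythroid cells and in 8.0% and 7.69% of wild-type ones, after thinning to 5000 UMIs. Of the 354 Gmnc-/- erythroid cells 33 were themselves chosen cells and 31 were over the limit on Tubb3 and Stmn2, against 10 and 4 of 225 in wild-type library 1 and 6 and 3 of 195 in wild-type library 2. Erythroid levels in CPM are therefore given below for the other 290 Gmnc-/- and 211 and 186 wild-type cells, a set chosen after seeing the data.

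The share of eligible cells that were chosen was 23.9% (interval 23.1 to 24.8%) in the Gmnc-/- library and 21.8% (20.8 to 22.8%) and 23.7% (22.6 to 24.9%) in the wild-type libraries, so the Gmnc-/- interval overlapped that of wild-type library 2. In cells thinned to 5000 UMIs, 25.4% (24.6 to 26.3%) of Gmnc-/- cells and 21.7% (20.6 to 22.7%) and 22.1% (21.02 to 23.3%) of wild-type cells held at least 2 rule UMIs. The Gmnc-/- interval overlapped neither wild-type one. Thinning left out shallower cells unevenly, 1270 of 10540 eligible Gmnc-/- cells and 169 of 6483 and 232 of 5508 wild-type cells. The part of this in the shares was not tested. With a rule on Neurog2 alone, chosen after seeing the data, the order was the other way: 15.4% in the Gmnc-/- library and 18.2% and 19.6% in the wild-type libraries held at least 5 Neurog2 UMIs.

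Different genes carried the rule in the 2 genotypes, which describes the choice and is not a finding. Gadd45g supplied 52.6% of the rule UMIs in chosen Gmnc-/- cells, and 30.2% and 28.7% in wild-type cells. Neurog2 supplied 40.3% in the Gmnc-/- library, and 67.1% and 68.5% in the wild-type libraries. Eomes, a marker of intermediate progenitors, supplied 7.06% (Gmnc-/-) and 2.72% and 2.80% (wild type). A Neurog2 UMI was present in 96.1% of chosen Gmnc-/- cells and in 99.1% and 99.4% of wild-type cells, whereas an Eomes UMI was present in 31.3% and in 13.9% and 14%. The chosen cells were therefore mostly Neurog2- and Gadd45g-positive cells without detected Eomes.

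At the threshold the change was gradual. Cells with 5 rule UMIs (316 in the Gmnc-/- library, 212 and 201 in the wild-type libraries) had Dll1 at 27.4 CPM (UMIs per 1000000 UMIs of the group) in the Gmnc-/- library and 42.7 and 46.4 in the wild-type libraries. Cells with 4 rule UMIs, just outside (430, and 288 and 277), had Dll1 at 23.7 (Gmnc-/-) and 34.7 and 33.3 (wild type) CPM. At the other limit, cells with 6 to 8 UMIs of Tubb3 and Stmn2 per 10000 had Eomes at 140 CPM in the Gmnc-/- library and 44.1 and 38.7 in the wild-type libraries. Those with 8 to 10, just outside, had Eomes at 174 (Gmnc-/-) and 62.9 and 74.6 (wild type) CPM.

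The markers outside the rule were higher in the chosen cells than in the comparison cells of every library. They were higher still in cells with at least 5 rule UMIs over the limit on Tubb3 and Stmn2. There Dll1 stood at 133 CPM (Gmnc-/-) and 292 and 320 (wild type). Rgs16 stood at 142 (Gmnc-/-) and 242 and 252 (wild type), and Srrm4 at 187 (Gmnc-/-) and 170 and 172 (wild type). Levels are sums of UMIs over all cells of a group, scaled to their total, so fewer cells with a transcript and less of it per cell cannot be told apart. Dll1, the ligand of lateral inhibition, stood at 62.7 CPM (interval 61.0 to 64.5) in Gmnc-/- and 106 (103 to 110) and 106 (103 to 110) in wild-type chosen cells. In comparison cells it stood at 8.53 in the Gmnc-/- library and 10.2 and 10.99 in the wild-type libraries, a 7.35-fold difference within the Gmnc-/- library and 10.4- and 9.65-fold differences within the wild-type libraries. Rgs16, a regulator of G-protein signalling, stood at 34.6 in Gmnc-/- and 27.8 and 25.5 in wild-type chosen cells, against 5.88 (Gmnc-/-) and 3.36 and 2.92 (wild type) in comparison cells. Srrm4, a splicing regulator of neural microexons, stood at 42.8 in Gmnc-/- and 28.8 and 29.8 in wild-type chosen cells, against 7.21 (Gmnc-/-) and 4.08 and 4.44 (wild type) in comparison cells. The counting intervals of the summed levels did not overlap between the groups for any of these 3 genes. Such intervals are narrow in sums over many cells, and the share of all genes with intervals apart was not counted. Single cells of the groups did overlap. After thinning to 5000 UMIs, Dll1 was detected in 29.3% of chosen Gmnc-/- cells and 34.6% and 36.4% of chosen wild-type cells, in 3.39% (Gmnc-/-) and 4.65% and 5.43% (wild type) of comparison cells, and in 8.11% (Gmnc-/-) and 2.67% and 3.08% (wild type) of all erythroid cells, chosen ones included. Without doublet-like cells, Dll1 was at 64.5 in Gmnc-/- and 118 and 113 in wild-type chosen cells.

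The label was met only in part, since genes of radial glia were at similar levels in chosen and comparison cells. Genes of dividing cells were at similar levels too, which is not counted against the label. Sox2, a factor of neural stem cells, stood at 454 CPM in Gmnc-/- and 412 and 405 in wild-type chosen cells, against 416 (Gmnc-/-) and 417 and 395 (wild type) in comparison cells. Hes5, a Notch target that holds cells as radial glia, stood at 219 in Gmnc-/- and 343 and 334 in wild-type chosen cells, against 178 (Gmnc-/-) and 249 and 264 (wild type) in comparison cells. Mki67, a marker of cycling cells, stood at 192 in Gmnc-/- and 192 and 197 in wild-type chosen cells, against 210 (Gmnc-/-) and 198 and 195 (wild type) in comparison cells. The 4781 cells with at least 5 rule UMIs that were over the limit on Tubb3 and Stmn2, and so were not chosen, had Eomes at 334 CPM in the Gmnc-/- library and 283 and 288 in the wild-type libraries, against 39.8 (Gmnc-/-) and 15.2 and 14.6 (wild type) in chosen cells. Their Sox2 stood at 213 (Gmnc-/-) and 170 and 166 (wild type). The chosen cells thus held raised Dll1 together with radial glia RNA, and most Eomes RNA lay beyond the limit. Their Neurog2 and Gadd45g follow from the rule and are not a finding. Without doublet-like cells Sox2 stood at 456 in Gmnc-/- and 411 and 402 in wild-type chosen cells. The part of doublets in this mixture was not tested.

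**Figure D1:**
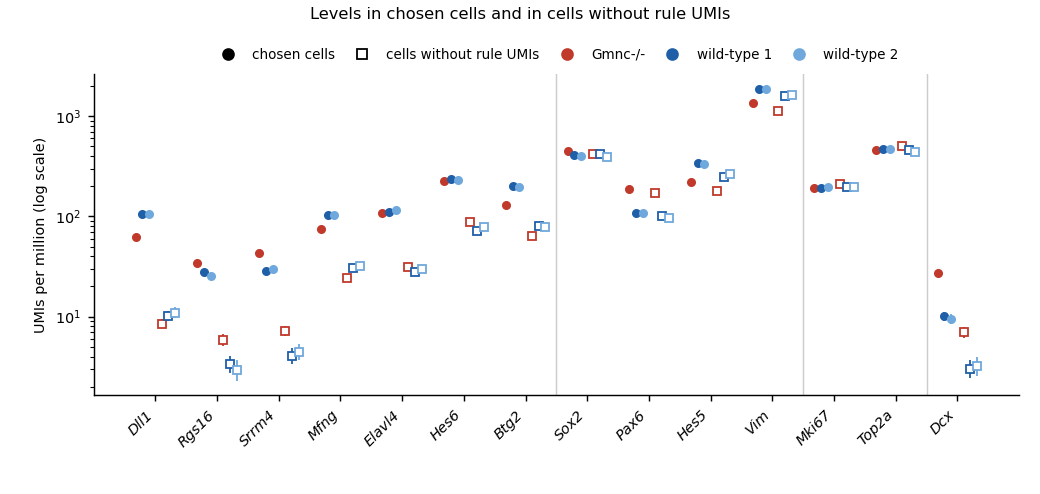
CPM (log scale) of 14 genes in chosen cells (filled circles) and comparison cells (open squares) of the Gmnc-/- library and the 2 wild-type libraries, with 95% Poisson intervals where they exceed the symbols. The 7 genes at the left are higher in chosen cells of every library; Sox2, Pax6, Hes5, Vim, Mki67 and Top2a lie at similar levels in both groups.

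Across 5575 genes measured above a floor of 50 UMIs and 20 CPM, and leaving out the genes of the rule, 13 genes (0.233%) were at least 2-fold higher in chosen cells in all 3 libraries and 22 (0.395%) at least 2-fold lower, with intervals that did not overlap. Because the rule chose the cells on the same transcriptomes, this is a description. The 13 were Dll1, Srrm4, Rgs16, Elavl4, Mfng, Btbd17, Lhx9, Hes6, D8Ertd82e, Rnd2, Miat, Elavl3 and Btg2. All were higher still in the cells over the limit on Tubb3 and Stmn2, except D8Ertd82e in the Gmnc-/- library. Their rise is thus not particular to the chosen cells. Mfng, a glycosyltransferase that modifies Notch receptors and ligands, stood at 74.6 CPM in Gmnc-/- and 104 and 104 in wild-type chosen cells, against 24.3 (Gmnc-/-) and 30.3 and 31.6 (wild type) in comparison cells. Hes6, an inhibitor of Hes1 activity that promotes neurogenesis, stood at 223 in Gmnc-/- and 237 and 229 in wild-type chosen cells, against 87.8 (Gmnc-/-) and 71.3 and 78.6 (wild type). Elavl4, a neuronal RNA-binding protein, stood at 108 in Gmnc-/- and 111 and 115 in wild-type chosen cells, against 31.0 (Gmnc-/-) and 27.6 and 29.7 (wild type). Btg2, an antiproliferative gene of neurogenic divisions, stood at 130 in Gmnc-/- and 200 and 198 in wild-type chosen cells, against 63.5 (Gmnc-/-) and 79.5 and 77.8 (wild type). Rnd2, a known Neurog2 target that acts in migrating neurons, stood at 54.5 in Gmnc-/- and 66.2 and 63.4 in wild-type chosen cells, against 23.4 (Gmnc-/-) and 28.4 and 30.4 (wild type).

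The comparison cells held cells of other types, and these led the genes lower in chosen cells. Lum, Col3a1, Col1a2 and Col1a1, genes of mesenchyme, and Tyrobp, C1qb and Fcer1g, genes of microglia, were the 7 with the largest differences. The summed level of 10 mesenchyme markers was 39.6 CPM in Gmnc-/- and 22.8 and 26.7 in wild-type chosen cells, against 281 (Gmnc-/-) and 202 and 292 (wild type) in comparison cells. The summed level of 8 microglia markers was 19.9 in Gmnc-/- and 3.14 and 8.93 in wild-type chosen cells, against 178 (Gmnc-/-) and 152 and 114 (wild type). The summed level of 9 erythroid markers was 7456 in Gmnc-/- and 3431 and 2220 in wild-type chosen cells, against 30836 (Gmnc-/-) and 35121 and 36408 (wild type). With comparison cells limited to those with a Sox2 UMI and under 1% haemoglobin UMIs, an alternative chosen after seeing the data, 9 genes were higher and 4 lower. Of the 13 higher genes 8 were among those 9 (Btbd17, Dll1, Elavl4, Hes6, Lhx9, Mfng, Rgs16 and Srrm4), and of the 22 lower genes 3 were among those 4: Ptn, Six3 and Sostdc1. These names were read off after their values were seen. The other marker lists differed less. The summed level of 8 endothelial markers was 16.8 in Gmnc-/- and 12.2 and 11 in wild-type chosen cells, against 24.1 (Gmnc-/-) and 22.1 and 25.6 (wild type). That of 10 choroid plexus markers was 159 (Gmnc-/-) and 74.2 and 74.1 (wild type) in chosen cells, against 216 (Gmnc-/-) and 265 and 259 (wild type). Each of the mesenchyme, microglia and erythroid markers had at least 1 UMI in the chosen cells of every library, while 2 endothelial markers were at 0 in each wild-type library and 1 choroid plexus marker in wild-type library 1.

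Of 9 Notch ligands and modifiers, 4 passed the floor and 2 were called higher in chosen cells, Dll1 and Mfng. Among all tested genes 0.233% were called higher. The median log2 difference of the 4 was 0.90 in the Gmnc-/- library and 1.03 and 1.0 in the wild-type libraries. Medians over all tested genes were 0.07 (Gmnc-/-) and 0.05 and 0.06 (wild type). Of 12 receptors and targets, 8 passed and none was called. Their median was 0.14 in the Gmnc-/- library and 0.24 and 0.18 in the wild-type libraries; the difference between the lists was not tested. The receptor Notch1 stood at 79.8 CPM in Gmnc-/- and 81.4 and 82.8 in wild-type chosen cells, against 52.1 (Gmnc-/-) and 41.9 and 43.1 (wild type). Dll3, a ligand-like protein that acts inside the cell, was low in chosen cells at 6.30 (Gmnc-/-) and 4.26 and 4.72 (wild type) and reached 60.2 (Gmnc-/-) and 119 and 132 (wild type) in the cells over the neuronal limit.

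Genes of the neurogenic programme were higher in part. For the counts below, 0.233% of all tested genes were called higher in chosen cells and 0.395% lower. Of 25 further genes of intermediate progenitors, 11 passed the floor and 5 were called higher, all of them named above, with a median log2 difference of 1.02 in the Gmnc-/- library and 0.93 and 0.88 in the wild-type libraries. Of 17 proneural and Neurod factors, 5 passed and Hes6 was called. Insm1, a zinc-finger factor of delaminating progenitors, was under the floor at 8.48 CPM in Gmnc-/- and 10.2 and 9.43 in wild-type chosen cells, against 1.11 (Gmnc-/-) and 1.91 and 2.65 (wild type) in comparison cells. Neurod1, a factor of early neurons, was also low, at 14.5 in Gmnc-/- and 7.49 and 9.55 in wild-type chosen cells, against 0.89 (Gmnc-/-) and 1.32 and 0.78 (wild type). Of 20 neuronal cytoskeleton and RNA-binding genes, 10 passed and 2 were called, Elavl3 and Elavl4. None of 22 radial glia genes was called higher and 1 was called lower, Ednrb, an endothelin receptor, among the 20 that passed; their median log2 difference was 0.13 in the Gmnc-/- library and 0.18 and 0.18 in the wild-type libraries. None was called among the 29 of 30 S-phase and the 29 of 30 G2 and M phase genes that passed. The S-phase medians were -0.14 in the Gmnc-/- library and -0.22 and -0.19 in the wild-type libraries, and the G2 and M phase medians were -0.04 (Gmnc-/-) and 0.08 and 0.16 (wild type).

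Within the chosen cells the markers outside the rule climbed with the level of the rule genes. The bins use the same values that chose the cells, so the climb is a description and gives no separate support. The cells were parted at 4, 8 and 16 rule UMIs per 10000, which gave 907, 737, 509 and 371 cells in the Gmnc-/- library, 510, 521, 251 and 130 in wild-type library 1, and 515, 423, 267 and 102 in wild-type library 2. Dll1 climbed over these bins through 26.5, 61.0, 130 and 263 CPM in the Gmnc-/- library, 43.4, 105, 222 and 455 in wild-type library 1, and 43.6, 109, 239 and 481 in wild-type library 2. Rgs16 reached 159 in the top bin of the Gmnc-/- library and 168 and 177 in those of the wild-type libraries, against 10.9 (Gmnc-/-) and 6.69 and 6.24 (wild type) in the lowest bins. Insm1 reached 49.99 (Gmnc-/-) and 63.6 and 63.1 (wild type) in the top bins. Neurog1, a proneural factor related to Neurog2, reached 24.8 in the top bin of the Gmnc-/- library and 104 and 125 in those of the wild-type libraries. Sox2 stayed within 397 to 486 in the Gmnc-/- library and within 324 to 430 and 314 to 418 in the wild-type libraries, lowest in the top bin each time. Mki67 was lower in the top bin, at 133 in the Gmnc-/- library and 119 and 155 in the wild-type libraries, than in the lowest, at 211 (Gmnc-/-) and 218 and 222 (wild type). The bins differed in depth: the median cell of the lowest bin held 42208 UMIs in the Gmnc-/- library and 29072 and 30922 in the wild-type libraries, that of the top bin 8148 (Gmnc-/-) and 10000 and 10929.5 (wild type). With a minimum of 5 rule UMIs only deep cells can fall in the lowest bin, so this difference in depth follows in part from the rule. Doublet-like cells were fewest in the top bin, at 15.9% in the Gmnc-/- library and 9.23% and 4.90% in the wild-type libraries.

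**Figure D2:**
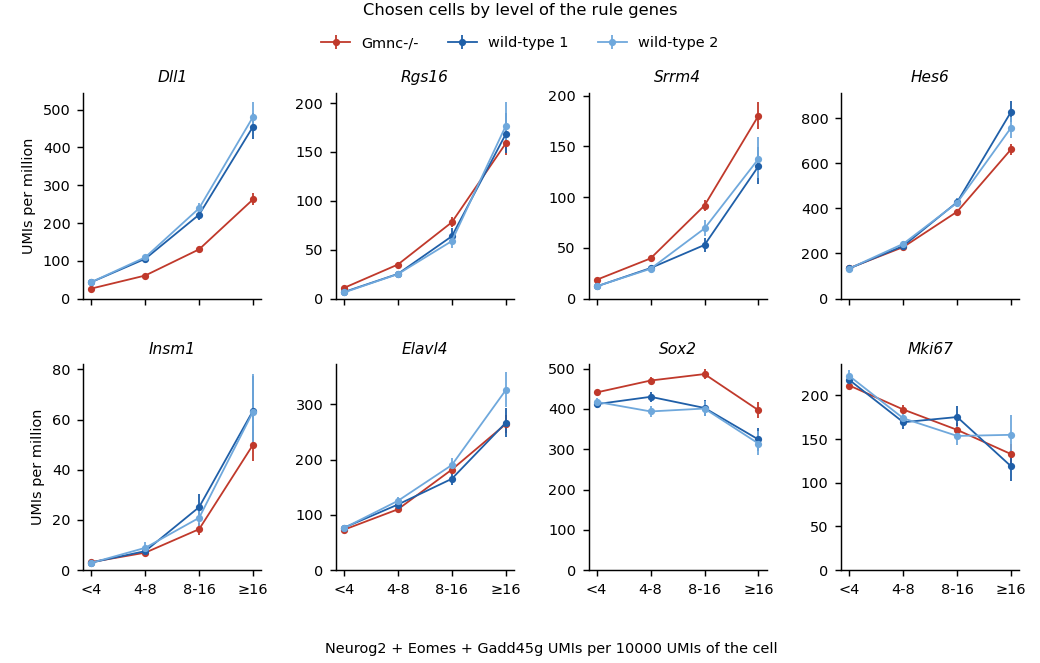
CPM of 8 genes (vertical axes, linear) in chosen cells parted by the UMIs of the 3 rule genes per 10000 UMIs of the cell (horizontal axes), for the Gmnc-/- library and the 2 wild-type libraries, with 95% Poisson intervals. Dll1, Rgs16, Srrm4, Hes6, Insm1 and Elavl4 climb in every library, Dll1 to 263 in the Gmnc-/- library and 455 and 481 in the wild-type libraries, while Mki67 is lowest in the top bin in the Gmnc-/- library and wild-type library 1.

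Chosen cells with Eomes held more Insm1 and Rgs16. Eomes is a rule gene, so this split is a description too. Chosen cells with at least 2 Eomes UMIs numbered 554 (21.9%) in the Gmnc-/- library and 94 (6.66%) and 97 (7.42%) in the wild-type libraries. In them Insm1 stood at 18.2 CPM in the Gmnc-/- library and 41.2 and 46.2 in the wild-type libraries, against 3.85 (Gmnc-/-) and 5.46 and 5.33 (wild type) in chosen cells without an Eomes UMI. Rgs16 stood at 59.4 (Gmnc-/-) and 71.1 and 76.5 (wild type) in the cells with at least 2 Eomes UMIs, against 23.7 (Gmnc-/-) and 21.7 and 18.8 (wild type) in those without. Doublet-like cells made up 48.6% of the Eomes-positive cells in the Gmnc-/- library and 52.1% and 41.2% in the wild-type libraries; their part in these values was not tested.

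The check of the targeted gene could not be made from its own transcript. Gmnc stood at 25.7 CPM (2096 UMIs) in Gmnc-/- and 19.7 (651 UMIs) and 22.6 (763 UMIs) in wild-type chosen cells, 1.22-fold (1.14 to 1.3) the level of the pooled wild-type libraries. In comparison cells it stood at 1.94 in the Gmnc-/- library and 3.36 and 3.62 in the wild-type libraries. The deleted part of the gene is stated in none of the labels, and a 3′ tag outside it would still be counted, so the level checks nothing. Chosen cells with a Gmnc UMI numbered 576 in the Gmnc-/- library and 189 and 199 in the wild-type libraries, and had Otx2 at 251 CPM and 150 and 128, against 66.4 (Gmnc-/-) and 23.4 and 24.6 (wild type) in those without.

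Ccno, Mcidas and Trp73, which act downstream of Gmnc in multiciliated cells, were at or close to 0 in the Gmnc-/- chosen cells. Ccno, which drives centriole amplification, stood at 0.0859 CPM (7 UMIs) in Gmnc-/- and 20.7 (684 UMIs) and 24.1 (811 UMIs) in wild-type chosen cells, 0.00384-fold the level of the pooled wild-type libraries (0.00154 to 0.00793). Mcidas, a partner of the same network, had 0 UMIs in Gmnc-/- and 283 and 299 UMIs in wild-type chosen cells, at least 237-fold lower against a floor of 3 counts over the group. Trp73, the p53-family factor of Cajal-Retzius neurons and multiciliated cells, had 0 UMIs in Gmnc-/- and 251 and 320 UMIs in wild-type chosen cells, at least 232-fold lower by the same floor. Foxj1, a master regulator of motile cilia, stood at 9.68 in Gmnc-/- and 24.9 and 26.1 in wild-type chosen cells, and at 8.80 (Gmnc-/-) and 21.7 and 23.6 (wild type) in comparison cells. Of 14 multiciliation regulators, 8 passed the floor. Ccno and Foxj1 were called lower in the Gmnc-/- library and Tfdp1, a partner of E2F factors, higher. Among all tested genes 0.727% were called lower and 2.89% higher. Foxj1 and Tfdp1 were also called in comparison cells, and Ccno was not, at 0.054 in the Gmnc-/- library and 3.85 and 5.57 in the wild-type libraries, under the floor of 20 CPM. Of 13 deuterosome and centriole genes, 7 passed and none was called, and none of 26 motile cilia components passed.

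In wild-type cells these genes were highest in the chosen cells with the most Tubb3 and Stmn2. Over bins of under 1, 1 to 2, 2 to 4 and 4 to 8 UMIs of Tubb3 and Stmn2 per 10000, and then in the cells over the limit, Ccno stood at 6.67, 8.42, 12.7, 35.5 and 192 CPM in wild-type library 1 and at 8.03, 11.6, 11.9, 46.6 and 189 in wild-type library 2. In the Gmnc-/- library the level was at most 0.163. Trp73 had 0 UMIs in every bin of the Gmnc-/- library and reached 90.7 and 92.4 over the limit in the wild-type libraries. Cdkn1a, the cell cycle inhibitor p21, reached 494 and 492 over the limit in the wild-type libraries and 11.7 in the Gmnc-/- library. Eomes and Nhlh2, a helix-loop-helix factor of early neurons, were highest over the limit in both genotypes. In the bin of 4 to 8 Eomes stood at 98.8 CPM in the Gmnc-/- library and 27.4 and 28.0 in the wild-type libraries, and over the limit at 334 (Gmnc-/-) and 283 and 288 (wild type). The limit itself rests on Stmn2, which stood at 14.9 in Gmnc-/- and 5.20 and 4.89 in wild-type chosen cells, and on Tubb3, at 258 in Gmnc-/- and 353 and 344 in wild-type chosen cells.

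**Figure D3:**
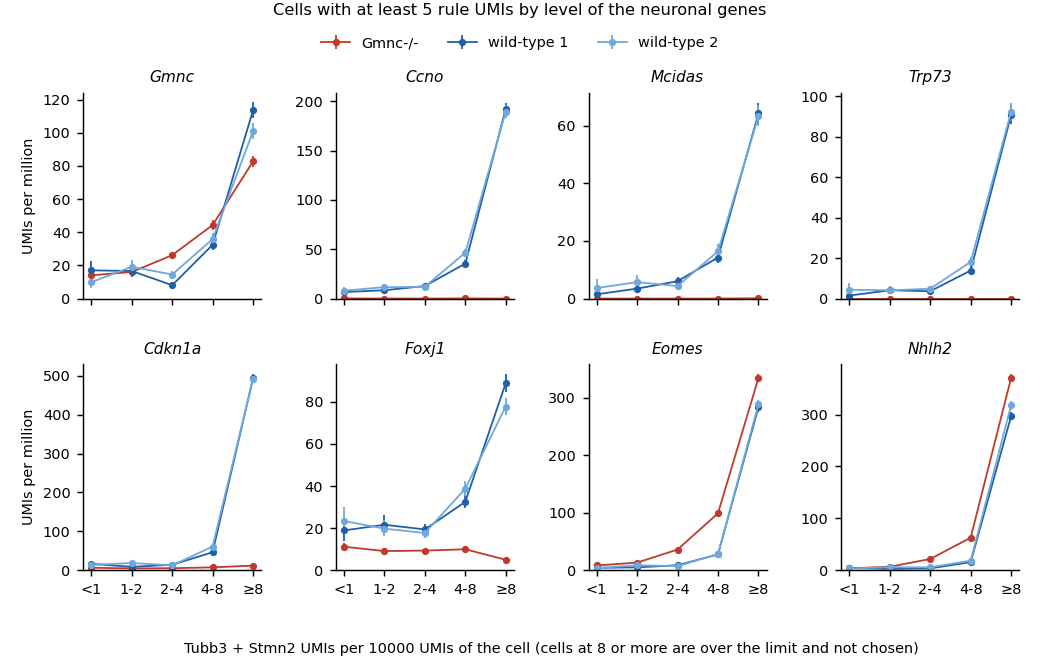
CPM of 8 genes (vertical axes, linear) in cells with at least 5 rule UMIs, by UMIs of Tubb3 and Stmn2 per 10000 UMIs of the cell (horizontal axes), for the Gmnc-/- library and the 2 wild-type libraries, with 95% Poisson intervals; cells at 8 or more were not chosen. Ccno, Mcidas, Trp73 and Cdkn1a are highest over the limit in the wild-type libraries and reach at most 11.7 (Cdkn1a) in the Gmnc-/- library, while Eomes and Nhlh2 are highest over the limit in all 3.

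Between genotypes within the chosen cells, 179 of 6186 genes (2.89%) were at least 2-fold higher in the Gmnc-/- library than in both wild-type libraries and 45 (0.727%) at least 2-fold lower. Most of these were not particular to the chosen cells: 143 of the 179 and 34 of the 45 were also called in comparison cells, where 184 of 6148 genes (2.99%) were higher and 74 (1.2%) lower. The genotypes were processed with different feature annotations, whose part in these values was not tested. Of the 36 higher and 11 lower genes not called in comparison cells, 25 and 7 were under 2-fold there with the pseudocount of 1 CPM. The genes named next come from these. Without the pseudocount, against the pooled wild-type libraries, Dcx (2.25-fold), Ptch1 (2.07-fold) and Egr1 (2.01-fold) were over 2-fold higher in comparison cells too. Ptk7 (0.487-fold) and Ccar2 (0.498-fold) were over 2-fold lower there. The differences of these genes are thus not particular to the chosen cells. The median log2 difference over all tested genes was -0.06 in chosen cells and -0.10 in comparison cells.

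Cdkn1a was the most reduced of these. It stood at 5.61 CPM in Gmnc-/- and 26.2 and 31.0 in wild-type chosen cells, 0.196-fold (0.177 to 0.217) the level of the pooled wild-type libraries. In comparison cells it stood at 7.26 in the Gmnc-/- library and 9.05 and 10.1 in the wild-type libraries. Without doublet-like cells it stood at 5.04 in Gmnc-/- and 23.7 and 21.9 in wild-type chosen cells. In chosen cells with a Gmnc UMI it stood at 8.59 in the Gmnc-/- library and 130 and 159 in the wild-type libraries, and in those without at 4.67 (Gmnc-/-) and 8.65 and 7.85 (wild type), 0.567-fold the wild-type mean. Cells with a Gmnc UMI were more often doublet-like, as given above, and the part of this was not tested. Limited to cells under 4 UMIs of Tubb3 and Stmn2 per 10000, Cdkn1a stood at 5.12 in Gmnc-/- and 13.02 and 14.1 in wild-type chosen cells. This was 0.377-fold the wild-type mean, and Cdkn1a was no longer called because both wild-type levels lay under the floor of 20 CPM. Limited to cells with at least 5 Neurog2 UMIs it stood at 4.51 in Gmnc-/- and 17.0 and 22.9 in wild-type chosen cells, 0.226-fold. It was not called either, because wild-type library 1 lay under the same floor. Of 18 genes of cell cycle exit, 13 passed and Cdkn1a alone was called, where 0.727% of all tested genes were called lower. Cdkn1b (p27) stood at 71.3 in Gmnc-/- and 45.1 and 43.1 in wild-type chosen cells, and Cdkn1c (p57) at 97 (Gmnc-/-) and 80.9 and 96.0 (wild type). The other 6 named as lower were Bccip, Ptk7, Ccar2, Rasl11a, Lsm3 and Fignl1. Bccip, which binds BRCA2 and p21, stood at 45.2 in Gmnc-/- and 99.3 and 106 in wild-type chosen cells, with 45.6 (Gmnc-/-) and 85.6 and 93.4 (wild type) in comparison cells, close to the same difference.

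Otx2 was the clearest gene that was higher in Gmnc-/- chosen cells and level in comparison cells. This homeobox factor of the hem and choroid plexus stood at 111 CPM in Gmnc-/- and 41.7 and 40.5 in wild-type chosen cells, 2.69-fold (2.58 to 2.81) the level of the pooled wild-type libraries. In comparison cells it stood at 135 in the Gmnc-/- library and 139 and 135 in the wild-type libraries. Erythroid cells held 83.4 in the Gmnc-/- library and 11.3 and 1.37 in the wild-type libraries, or 1.37 (Gmnc-/-) and 0.194 and 0.0269 (wild type) UMIs per cell, against 3.57 UMIs per chosen cell in the Gmnc-/- library and 0.977 and 1.04 in the wild-type libraries. Zic4, a midline zinc-finger factor, stood at 119 in Gmnc-/- and 50.2 and 48.2 in wild-type chosen cells, with 159 (Gmnc-/-) and 122 and 124 (wild type) in comparison cells and 67.0 (Gmnc-/-) and 7.72 and 3.28 (wild type) in erythroid cells. Mt1, a metallothionein, stood at 118 in Gmnc-/- and 42.8 and 39.6 in wild-type chosen cells, with 145 (Gmnc-/-) and 106 and 82.0 (wild type) in comparison cells and 731 (Gmnc-/-) and 975 and 883 (wild type) in erythroid cells. The summed level of erythroid markers in the chosen cells, given above, was also higher in the Gmnc-/- library; the part of RNA from other cells in the values of Otx2, Zic4 and Mt1 was not tested. Maf, a leucine zipper factor, stood at 21.6 in Gmnc-/- and 6.19 and 7.5 in wild-type chosen cells, with 50.6 (Gmnc-/-) and 32.6 and 31.6 (wild type) in comparison cells and 40.4 (Gmnc-/-) and 4.41 and 1.09 (wild type) in erythroid cells. Gmnc-/- erythroid cells held more Maf and more Mt1 on the CPM scale than the chosen cells, so no difference between genotypes is read from either. Egr1, Ptch1, Zfhx4, Lmo4, Ddx50 and Alkbh8 were the others named as higher, with Dcx and Nhlh2.

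Nhlh2 and Dcx, genes of neuronal differentiation, were higher in Gmnc-/- chosen cells. Nhlh2 stood at 24.1 CPM in Gmnc-/- and 8.16 and 10.0 in wild-type chosen cells, with 2.89 (Gmnc-/-) and 1.71 and 1.60 (wild type) in comparison cells and 9.05 (Gmnc-/-) and 3.03 and 1.91 (wild type) in erythroid cells. Dcx, a microtubule protein of migrating neurons, stood at 27.0 in Gmnc-/- and 10.1 and 9.46 in wild-type chosen cells, with 6.99 (Gmnc-/-) and 3.03 and 3.2 (wild type) in comparison cells and 9.47 (Gmnc-/-) and 1.65 and 1.91 (wild type) in erythroid cells. Erythroid cells thus held more of both in the Gmnc-/- library as well, at lower levels than the chosen cells. Eomes, a rule gene, stood at 39.8 in Gmnc-/- and 15.2 and 14.6 in wild-type chosen cells, and at 7.16 (Gmnc-/-) and 0.551 and 0.820 (wild type) in erythroid cells. With the erythroid cells that were chosen or over the limit included, Nhlh2 stood at 45.8 (Gmnc-/-) and 6.71 and 10.5 (wild type) and Dcx at 33.8 (Gmnc-/-) and 3.97 and 6.68 (wild type), in the Gmnc-/- library above the chosen cells. The part of RNA from other cells in these differences was not tested. Dll1 went the other way: 62.7 in Gmnc-/- chosen cells against 106 and 106 in wild-type ones (0.591-fold, 0.570 to 0.613), and 4.84 in Gmnc-/- erythroid cells against 1.93 and 3.01 in wild-type ones.

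**Figure D4:**
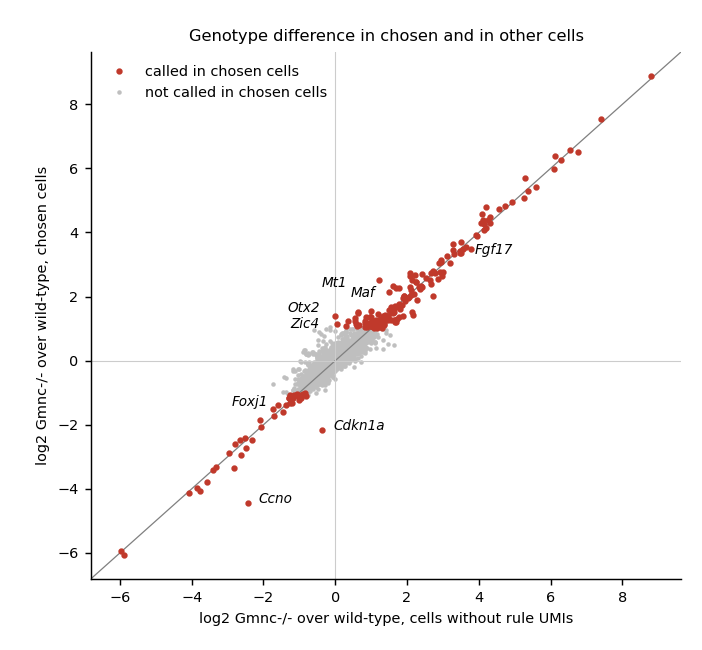
Log2 difference of Gmnc-/- over the wild-type mean in chosen cells (vertical axis) against the same in comparison cells (horizontal axis) for 6186 tested genes, with genes called in chosen cells in red and equality as the grey line. Most called genes lie near the line; Cdkn1a and Ccno lie below it and Otx2 and Zic4 above it.

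Several radial glia and timing genes were higher in the Gmnc-/- library. Of the 21 radial glia genes that passed, Hes1, Aldoc and Mt3 were called higher in the Gmnc-/- library and none lower, where 2.89% of all tested genes were called higher; in comparison cells 4 of 22 were called higher, against 2.99% of all. Hes1, a Notch target, stood at 233 CPM in Gmnc-/- and 100 and 110 in wild-type chosen cells, with 263 (Gmnc-/-) and 106 and 110 (wild type) in comparison cells. Of 16 genes of developmental timing, 13 passed and Nfia, Zbtb20 and Aldoc were called higher. Hes1, Aldoc, Mt3 and Nfia were also called in comparison cells, whereas Zbtb20 was not. Nfia, a factor that rises as progenitors age, stood at 529 in Gmnc-/- and 258 and 258 in wild-type chosen cells, with 451 (Gmnc-/-) and 179 and 189 (wild type) in comparison cells. The wild-type suspension also held the younger stage, so stage and genotype cannot be told apart in these values. The lists of Notch receptors and targets (Hes1 of 8 tested), migration (Epha5 and Dcc of 7) and pallial neurons (Tle4, Nfia, Lmo4 and Pcp4 of 13) also held genes higher in the Gmnc-/- library, and Pcna of 29 S-phase genes is near the share of all genes.

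None of the hem genes was called between chosen and comparison cells, and their median difference had opposite signs in the genotypes. Of 8 hem genes 5 passed the floor; their median log2 difference, chosen over comparison cells, was 0.13 in the Gmnc-/- library and -0.89 and -0.93 in the wild-type libraries. Among all tested genes 0.233% were called higher in chosen cells and 0.395% lower. The median log2 difference of hem genes, Gmnc-/- over wild type, was -0.04 in chosen cells and -0.96 in comparison cells. In comparison cells 3 of 6 tested hem genes were called lower in the Gmnc-/- library, against 1.2% of all tested genes. None was called between genotypes in chosen cells. These differences between genotypes were not tested. Lmx1a, a LIM factor of the hem, stood at 23.5 CPM in Gmnc-/- and 24.4 and 23.9 in wild-type chosen cells, and at 23.3 (Gmnc-/-) and 46.2 and 46.5 (wild type) in comparison cells. Rspo2, a Wnt amplifier, stood at 154 in Gmnc-/- and 119 and 124 in wild-type chosen cells, and at 141 (Gmnc-/-) and 255 and 259 (wild type) in comparison cells. Rspo3, another Wnt amplifier, stood at 944 in Gmnc-/- and 630 and 611 in wild-type chosen cells, and Rspo1 at 383 (Gmnc-/-) and 469 and 484 (wild type). The summed level of the 8 hem genes was 1557 CPM in Gmnc-/- and 1301 and 1300 in wild-type chosen cells, against 1355 (Gmnc-/-) and 2108 and 2206 (wild type) in comparison cells. The 24 hem Wnt, Bmp and R-spondin genes, 17 of them tested and none called, had a median of 0.13 in the Gmnc-/- library and -0.42 and -0.43 in the wild-type libraries. Between genotypes, 5 of 19 of them tested in comparison cells were called lower in the Gmnc-/- library.

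None of the 8 pallial genes, all of which passed the floor, was called; they had a median log2 difference of 0.30 in the Gmnc-/- library and 0.35 and 0.44 in the wild-type libraries. Lhx2, the cortical selector that opposes hem identity, stood at 583 CPM in Gmnc-/- and 907 and 907 in wild-type chosen cells, and at 421 (Gmnc-/-) and 501 and 469 (wild type) in comparison cells. Of the septal and preoptic genes 3 were tested, with a median of -0.42 in the Gmnc-/- library and -1.27 and -1.34 in the wild-type libraries, and 1 was called lower. This was Six3, which stood at 22.7 in Gmnc-/- and 12.4 and 12.2 in wild-type chosen cells, against 48.7 (Gmnc-/-) and 65.5 and 64.2 (wild type). As a share of all tested genes, 0.395% were called lower in chosen cells and 0.233% higher. Diencephalic and ventral genes were scarce. Of 10 diencephalic genes 2 passed and Lhx9 was called higher, at 51.6 in Gmnc-/- and 44.2 and 41.7 in wild-type chosen cells, against 19.1 (Gmnc-/-) and 10.9 and 10.4 (wild type); of 8 ventral genes 1 passed and none was called. None of 21 epithelial and junction genes was called, with 12 tested.

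The wild-type chosen cells were parted by the reporter UMIs they held. A tdTomato UMI without eYFP was found in 195 and 190 chosen cells of the wild-type libraries, and eYFP without tdTomato in 821 and 763. Both were found in 70 and 64 cells and neither in 326 and 290. The tdTomato reporter belongs to the E12.5 Wnt3aCre embryos and eYFP to the E11.5 embryos. A reporter UMI can be RNA from another cell, so the group of a cell does not settle its embryo or stage. PGKCre acts in blood as well, and 58.7% and 54.9% of erythroid cells held an eYFP UMI. A tdTomato UMI was found in 4.44% and 7.18% of erythroid cells, against 18.8% and 19.4% of chosen cells. Cells with neither reporter may be E12.5 cells outside the Wnt3a lineage or cells whose reporter was not detected, which cannot be told apart. Of 5862 genes, 1 (0.0171%) was at least 2-fold higher in tdTomato-only than in eYFP-only cells, Gt(ROSA)26Sor, the locus of both reporters, and 0 (0.0%) were lower. Against cells with neither reporter, 47 of 5850 genes (0.803%) were higher in tdTomato-only cells and 0 (0.0%) lower. Lmx1a, one of the 47, stood at 40.7 and 37.1 CPM in tdTomato-only cells and at 10.5 and 7.98 in cells with neither. Doublet-like cells made up 37.9% and 23.2% of tdTomato-only cells and 14.1% and 7.59% of cells with neither, and their median UMIs were 24357 and 24590 in tdTomato-only cells and 15908 and 16625.5 in cells with neither; the part of depth and doublets was not tested.

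Each reporter group was set in turn against the same Gmnc-/- cells. With wild-type chosen cells limited to tdTomato-only cells, 166 of 6163 genes (2.69%) were higher in the Gmnc-/- library and 40 (0.649%) lower. Of these 156 and 37 were among the 179 and 45 called against all wild-type chosen cells. Limited to eYFP-only cells, 177 of 6173 genes (2.87%) were higher and 45 (0.729%) lower, of which 171 and 41 were among the 179 and 45. All these comparisons share the same Gmnc-/- cells and the reporter groups are parts of the wild-type cells, so nothing on stage is read from the overlap. Otx2 stood at 111 CPM in the Gmnc-/- library and at 57.7 and 53.6 in tdTomato-only cells of the wild-type libraries, and was no longer called. Nfia stood at 529 in the Gmnc-/- library and at 278 and 270 in those cells, and Hes1 at 233 (Gmnc-/-) and 110 and 113 (wild type). Cdkn1a stood at 5.61 in the Gmnc-/- library and at 26.1 and 32.9 in those cells.

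**Figure D5:**
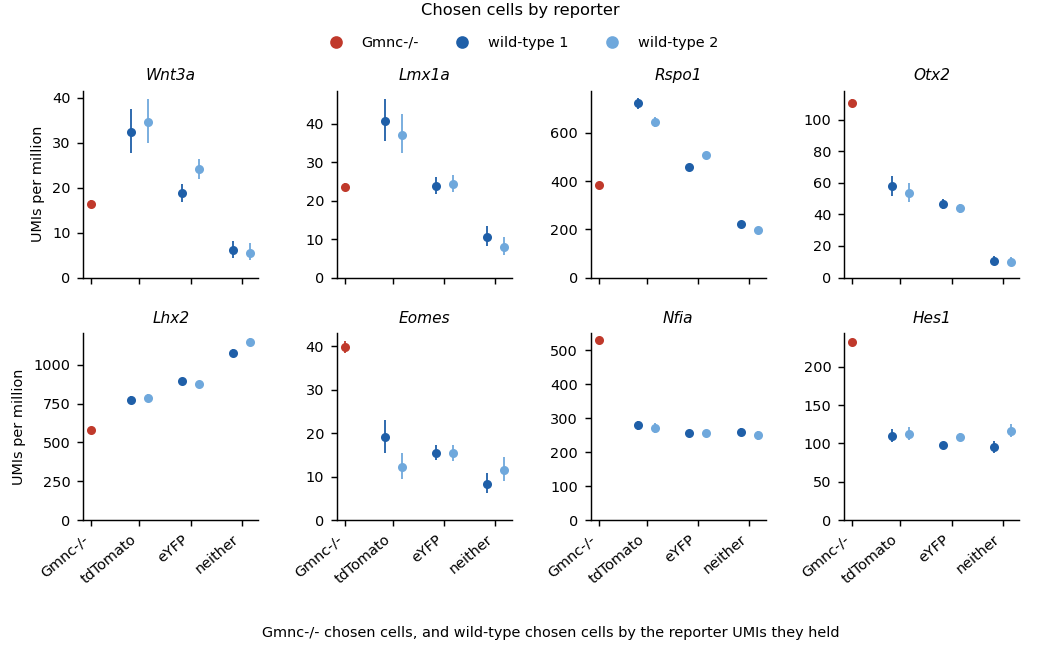
CPM of 8 genes (vertical axes, linear) in Gmnc-/- chosen cells and in wild-type chosen cells with only a tdTomato UMI, only an eYFP UMI, or neither, for the 2 wild-type libraries, with 95% Poisson intervals. Wnt3a, Lmx1a, Rspo1 and Otx2 are lowest in cells with neither reporter; Eomes, Nfia and Hes1 are higher in the Gmnc-/- library than in every wild-type group.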

How the data were processed

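Single-cell UMI counts per gene and barcode were deposited by the authors for 3 libraries; per the file headers they were made with Cell Ranger 6.0.0 for the Gmnc-/- library and 3.1.0 for the wild-type libraries, while 3.1.0 is named for all per the submitters' processing notes, with build mm10. No annotation release is named in the labels or headers. The 27040 features with an Ensembl ID in all libraries were kept, with 99.2% of the UMIs (Gmnc-/-) and 99.8% and 99.8% (wild type). All 3 matrices were used whole.

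Cells needed at least 1000 genes and 2000 UMIs and at most 10% mitochondrial UMIs. UMIs were summed over the cells of a group and divided by their total (CPM); log2 folds used a pseudocount of 1 CPM and the mean of the wild-type libraries, which share 1 suspension and are technical repeats. A gene was called at 2-fold or more in the same direction in every library (chosen over comparison cells) or against each wild-type library (genotype), with 95% Poisson intervals that did not overlap, and the group with the higher level had to hold 50 UMIs and 20 CPM. Haemoglobin, mitochondrial, ribosomal, sex-linked and predicted genes and those of the rule were not counted. Named genes were up to 15 higher and 10 lower in chosen cells by smallest fold over libraries, up to 12 in each direction by genotype that were under 2-fold in comparison cells, and list members. The members, gene lists and alternatives were chosen with earlier results of these data known. For counts no model was fitted across samples, since there was 1 suspension per genotype, and no p-value is given.

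Each cell got a doublet score from its neighbours among simulated doublets (2 per cell, 30 components), at a rate of 0.8% per 1000 barcodes, which marked 16.2% (Gmnc-/-) and 9.94% and 8.32% (wild type); they were kept, and left out as an alternative. Thinning drew 5000 UMIs without replacement per cell and left out shallower cells: 88 chosen and 727 comparison cells in the Gmnc-/- library, and 7 and 116, and 6 and 147, in the wild-type libraries. The calls were checked on simulated counts. Alternatives changed the threshold, depth, limits, scaling (edgeR 4.0.16 TMM factors in R 4.3.3, median ratios), weighting, pseudocount and floor. Python 3.11.15, numpy 2.4.6, scipy 1.17.1, pandas 2.3.3 and scikit-learn 1.9.0 were used. Promoter sequences are RefSeq's on GRCm38.p6.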

Additional observations from a re-analysis of the deposited data

Results flagged for a closer look

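Differences between chosen and comparison cells ran in opposite directions in the 2 genotypes for 2 gene lists and 2 genes. The median log2 difference of the hem genes was 0.13 in the Gmnc-/- library and -0.89 and -0.93 in the wild-type libraries. That of the hem Wnt, Bmp and R-spondin genes was 0.13 in the Gmnc-/- library and -0.42 and -0.43 in the wild-type libraries. Cdkn1a had a log2 difference of -0.32 in the Gmnc-/- library and 1.43 and 1.52 in the wild-type libraries. Ddx50, an RNA helicase, had 0.15 in the Gmnc-/- library and -0.21 and -0.19 in the wild-type libraries. With 1 suspension per genotype, the difference between genotypes was not tested.

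A signal appeared in a feature that no comparison used, the Cre transgene. It had 6 and 7 UMIs in chosen cells of the wild-type libraries, in 0.425% and 0.536% of them, above the limit of 3 counts that a count of 0 allows. Comparison cells had 5 and 2 such UMIs.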

How the results depend on the processing

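No paired analysis was possible because the genotypes share fewer than 2 replicate numbers and no test was run. The count of genes higher in chosen cells (13) became 8 at a threshold of 3 rule UMIs, 26 at 10, 40 at 5 per 10000, 26 in cells of 5000 to 20000 UMIs, 7 with Tubb3 and Stmn2 under 4 per 10000, 24 as a mean over cells, 8 with a pseudocount of 5 CPM and 44 with a floor of 10 UMIs alone. The 22 lower genes became 219 with that floor and 4 with the Sox2-positive comparison cells. The 45 genes lower in the Gmnc-/- library became 76 in cells of 5000 to 20000 UMIs and 68 with that floor, and the 179 higher ones 444 with that floor. The share of chosen cells, Gmnc-/- over wild type, was 1.05 and became 1.29 at a threshold of 10, 1.31 at 5 per 10000, 1.13 with Tubb3 and Stmn2 under 4 per 10000, 0.974 without doublet-like cells, 0.881 in cells of 5000 to 20000 UMIs and 0.816 with at least 5 Neurog2 UMIs, so its direction is not fixed. The causes were not tested. Leaving out either wild-type library gave 13 to 15, 24 to 29, 50 to 59 and 189 to 195 genes and a share of 1.01 to 1.10. The 23 genes named between chosen and comparison cells kept their sign in all 345 values; the 30 compared between genotypes changed it in 2 of 480. List medians changed sign in 10 of 375 and 11 of 400 values, none of them with a size over 0.37 in the values above. TMM factors moved the median genotype difference of all genes to -0.01. One suspension per genotype and the depth gap between chosen and comparison cells limit all values.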
